A study of Mus musculus with 55 samples.

Results

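The 38 transcripts described here almost vanished from mouse oocytes at the germinal vesicle (GV) stage in the libraries labelled with cPDS and 12h. They were chosen by their GV levels. A gene was taken when its mean over the 3 GV_C libraries was at least 50 CPM (the count scaled to a library total of 1e6) and its mean over the 3 GV_cPDS_12h libraries was at most 0.125 of that. Of the 33924 genes in the table, 3755 met the first condition and 43 of those met the second, which is 1.15%. Genes of translation initiation, cytosolic ribosomes, the proteasome and respiratory chain subunits, and 5 further symbols, were left out by name. This removed Arpc3, Dnajb1, Pabpn1l, Eif5a and Hnrnpa1 and left the 38. Because the GV libraries chose the members, their fall there is described and not tested. The other libraries had no part in the choice, and the tests below are on those.

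A guanine-rich RNA can fold into a G-quadruplex, in which guanines of separate runs stack in planar layers held by a metal ion. The helicase DHX36, for which RHAU is another name, resolves such structures. Carboxypyridostatin (cPDS) is a small molecule that binds and stabilises G-quadruplexes, with a preference for those of RNA. Full-grown GV oocytes are largely silent in transcription and live on stored messenger RNA, so a level there reflects how long a transcript lasts as well as how much was made during growth. DRB inhibits CDK9, the kinase that releases paused RNA polymerase II, and TRIM21 is a ubiquitin ligase that the Trim-Away method uses to destroy a protein bound by a delivered antibody.

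RNA sequencing counts of 26 oocyte libraries were used, out of 55 samples of the series, and every one is labelled as ovary and oocyte. The groups were GV_C and GV_cPDS_12h (3 libraries each, genotype and time of GV_C not labelled), growing control and growing Dhx36_sko (3 each), a second experiment of c, c_DRB, rhau_sko and rhau_sko_DRB (2 each), and a Trim experiment of Trim21 and control at 3 h (3 each). The protocol text names control mice and Dhx36fl/fl;SKO mice, does not expand SKO, and states no driver line, age or strain. Whether replicates are separate animals, cultures or repeated libraries of one pool is not stated, so the p-values measure only the spread between these libraries.

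Total counts ran from 7452742 to 65444652 in 24 deep libraries, while c_DRB replicate 4 and the library labelled rhau_sko replicate 6 held 129192 and 127927. Those 2 shallow libraries were left out of the fits of the second experiment, and the latter carried Dhx36 at 46.9 CPM, against its label. The log2 fold change of Dhx36 was -2.01 ± 0.24 (SE) in growing sko, -2.72 ± 0.17 in the deep sko libraries of the second experiment and -1.99 ± 0.18 in the Trim21 libraries, and the gene stood at 21.7 CPM in GV_C and 35.1 CPM with cPDS. All 12 oocyte markers were present in the GV libraries, where they summed to 23670 to 25891 CPM in GV_C and 30497 to 34048 CPM with cPDS. Of these 12, 8 had all cPDS libraries above all GV_C libraries and 2 below. Gdf9 made the largest difference, 6511 against 9564 CPM, whereas Zar1 went from 554 to 207 CPM. The 17 granulosa and cumulus markers summed to 117 to 121 CPM in GV_C and 92.9 to 106 CPM with cPDS. Most of that sum was Cyp19a1, which went from 84.4 to 62.1 CPM. Of the 17, 3 had all cPDS libraries above all GV_C libraries and 3 below. The 9 immune, endothelial and blood markers summed to 57.3 to 60.8 CPM in GV_C and 16.6 to 17.2 CPM with cPDS. Most of the last sum was Pecam1, which went from 56.0 to 13.5 CPM, whereas Cd52, Hbb-b1 and Hba-a1 were at 0 in all 6 libraries. Kdr and Cd68 stood at 1.48 and 2.02 CPM in GV_C and at 1.38 and 1.98 CPM with cPDS. The part of these cells in the results was not tested.

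The 38 transcripts together took 0.604% to 0.646% of the counts in the 3 GV_C libraries and 0.0492% to 0.0617% in the 3 cPDS libraries. Their median level was 98.8, 103 and 101 CPM in GV_C and 10.6, 8.20 and 6.97 CPM with cPDS. These low levels were not shared by the bulk of the transcriptome. Over the 3755 genes with at least 50 CPM in GV_C the median ratio of cPDS to GV_C was 1.00, 1359 genes lay between 0.5 and 1, and 1871 lay between 1 and 2. Only 6 genes were more than 2-fold higher, led by the oocyte homeobox gene Obox2 at 3.30-fold. The sources used here mention no spike-in, so a level is a share of its library. The number of cells per library is not given either, and fewer cells of a type cannot be told apart from less RNA per cell.

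**Figure D1:**
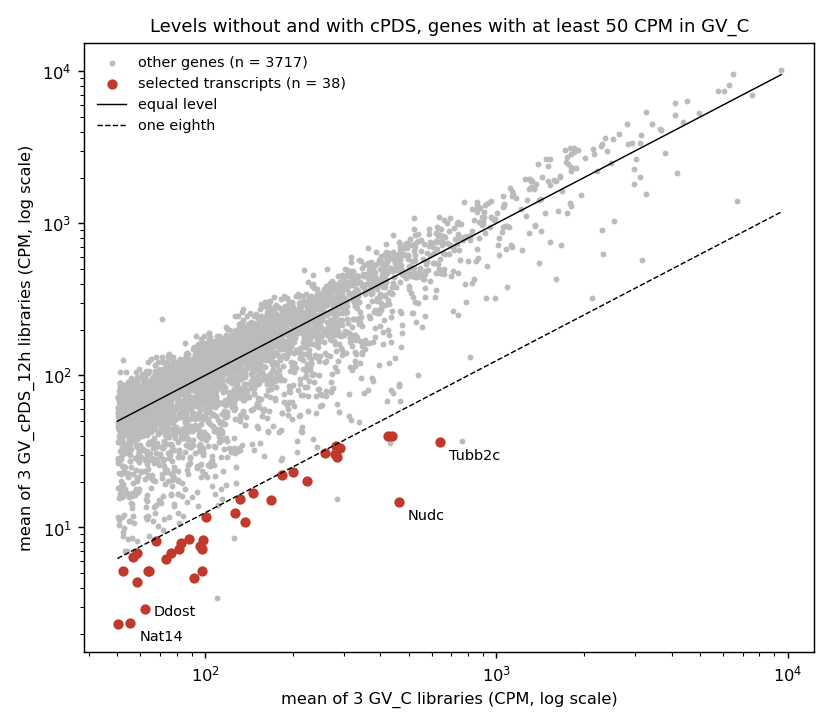
Mean level in the 3 GV_C libraries (x axis, CPM, log scale) and in the 3 GV_cPDS_12h libraries (y axis, CPM, log scale) of the 3755 genes with at least 50 CPM in GV_C. The 38 selected transcripts (red) lie on or under the dashed line at 0.125, and the 5 grey points under it are the genes left out by name.

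Nudc, whose product is a chaperone-like partner of the dynein motor, had the deepest fall. It read 413, 483 and 488 CPM in GV_C and 17.9, 16.1 and 10.4 CPM with cPDS, so that 3.21% of the GV_C mean was left (31.2-fold lower). Nat14, a predicted acetyltransferase gene, read 54.2, 52.2 and 59.7 CPM in GV_C and 2.95, 2.26 and 1.86 CPM with cPDS (4.26% left). The 2 groups of libraries were far apart for both genes. The uncharacterised 2610001J05Rik kept 4.61%, and Ddost, a subunit of the enzyme that attaches N-linked sugars in the endoplasmic reticulum, kept 4.71%. At the other end of the selection, the members just inside the threshold were Dctn3 (12.1% left), Syf2 (12.1%) and Nkd1 (12.2%), and the genes just outside were Vti1b (12.8%), D4Ertd22e (12.9%) and Thoc3 (13.3%). The threshold therefore passes through a continuous range of values. With leave-outs of each GV library in turn, the rule found 35 to 42 genes.

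By known function the members spread over 6 broad roles that were written down after the members were known. Of the 38, 8 were placed with the cytoskeleton, transport and the nuclear pore, 7 with RNA processing and 7 with protein folding and modification. Metabolism, lipids and mitochondria took 7 and DNA repair 4, and the other 5 are signalling or poorly described genes. The median share left was close in all of them, from 7.86% in the last group to 9.52% in metabolism. No role held only the deepest falls: the cytoskeletal group alone ran from 3.21% to 12.1%.

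Among the RNA processing genes, Hnrnpk encodes a poly(C)-binding nuclear ribonucleoprotein. It read 452, 397 and 427 CPM in GV_C and 41.9, 40.7 and 37.1 CPM with cPDS (9.38% left). Rbm17 and U2af1, which take part in the choice of the 3′ splice site, kept 10.9% and 8.92%. Syf2, a component of the activated spliceosome, read 232, 279 and 260 CPM and then 35.7, 28.8 and 28.8 CPM. D10Wsu52e, now Rtcb, encodes the ligase that joins transfer RNA exons and kept 8.84%. Fam46b, now Tent5b, encodes a non-canonical poly(A) polymerase and kept 11.7%. The methyltransferase gene 2810422O20Rik, now Mettl18, kept 8.11%. It was placed in this role, though a part of its product in RNA processing is not shown here.

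Of the folding and modification genes, Sumo3 encodes a ubiquitin-like modifier. It read 459, 413 and 448 CPM in GV_C and 40.7, 43.2 and 35.6 CPM with cPDS (9.06% left). Pdia6, a disulfide isomerase of the endoplasmic reticulum, read 289, 276 and 288 CPM and then 31.8, 28.9 and 25.9 CPM. The J-domain co-chaperone gene Dnajc9, whose product also handles histones, kept 11.5%. H2-Ke2, now Pfdn6, encodes a subunit of prefoldin, which passes nascent actin and tubulin to their chaperonin. It read 82.9, 109 and 101 CPM and then 5.42, 5.55 and 4.52 CPM (5.30% left). Ddost read 71.3, 54.3 and 60.9 CPM and then 3.69, 2.57 and 2.52 CPM. Fkbp2, a prolyl isomerase of the endoplasmic reticulum, was 8.33-fold lower, and Zfand2b, a zinc finger gene linked to the proteasome, kept 8.51%.

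In the cytoskeletal and transport group, Tubb2c (now Tubb4b) encodes a beta-tubulin, the building block of microtubules. It read 698, 547 and 677 CPM in GV_C and 38.4, 38.6 and 32.5 CPM with cPDS (5.70% left, 17.5-fold lower). Dctn3, a subunit of the dynein cofactor dynactin, read 172, 189 and 192 CPM and then 25.4, 20.1 and 21.2 CPM. The other members of this group were Cyth2, an exchange factor for ARF GTPases (7.90% left), Arl3, a small GTPase of ciliary transport (8.14%), Pdlim2, an actin-associated adaptor (8.43%), Nup188, a scaffold nucleoporin (11.4%), and Twf2, which binds actin monomers (11.7%). Per kilobase of summed exon, Nudc at 324 and Tubb2c at 307 CPM in GV_C were at similar levels and fell to 10.4 and 17.5 CPM per kilobase.

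Of the metabolic members, Pkm2 (the gene for muscle-type pyruvate kinase, now Pkm) read 252, 177 and 243 CPM in GV_C and 21.1, 19.0 and 20.2 CPM with cPDS (8.95% left). Xdh, xanthine dehydrogenase of purine breakdown, read 160, 185 and 160 CPM and then 17.6, 14.9 and 13.2 CPM (9.05% left). Phb2, a scaffold of the inner mitochondrial membrane, kept 11.5%. Npc2, which carries cholesterol in the lysosome, kept 9.92%, the fatty acid thioesterase gene Olah 11.6%, the lysophospholipase gene Abhd12 9.52% and the cytochrome gene Cyb561d2 7.43%. The 4 DNA repair genes were Ung, the glycosylase that removes uracil (58.6, 52.1 and 64.0 CPM, then 4.96, 4.94 and 3.29 CPM), Swi5, a recombination factor (11.6% left), 2610002D18Rik, now Aunip (5.11%), and Nudt16l1, which binds the repair factor 53BP1 (9.62%). The remaining genes were Nkd1, an inhibitor of Wnt signalling, Mlf2 (7.86%), Tmem150a (9.94%), Nat14 and 2610001J05Rik. Every member thus kept between 3.21% and 12.2% of its GV_C mean.

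The GV ratios were also read over 15 gene lists drawn up by symbol, which together hold 12 of the 38 members. Among them, the list of oocyte and egg genes had 77 genes above the level minimum, a median ratio of 1.25 and 0 genes at or under 0.125. The mitochondrial ribosome list had 48 genes, a median of 1.04 and 0 such genes, and the cell cycle and meiosis list had 84 genes, a median of 0.96 and 0 such genes. The splicing list had the lowest median, 0.71 over 52 genes with 3 at or under 0.125, Hnrnpk and U2af1 among them. The chaperone list stood at 0.85 over 67 genes with 4 and the cytoskeletal list at 0.82 over 56 genes with 3. Over all 3755 genes, 13.8% lay at or under a ratio of 0.5, 4.10% at or under 0.25 and 1.15% at or under 0.125. With so small a share, a count of 0 in a list of these sizes says little. These counts include the genes left out by name, and the GV contrast chose the members, so they describe where the members sit and support nothing further.

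Known partners and paralogs of the members were read in the same GV libraries. The members were selected for a low ratio, so no comparison of the partners with them is drawn. The partners were listed after the members were known, and 66 partners of 18 members had at least 10 CPM in GV_C. Their median ratio was 0.87, 27 of the 66 were at or above 1, 16 were at or under 0.5, 3 were at or under 0.25 and 0 were at or under 0.125. At a minimum of 50 CPM in GV_C there were 44 partners, with a median ratio of 0.86, 10 at or under 0.5 and 18 at or above 1. The 3755 well-expressed genes, taken at that same minimum, had a median ratio of 1.00, with 13.8% at or under 0.5. The 8 partners of Ddost in the oligosaccharyltransferase lay between 0.48 (Stt3a) and 1.30 (Magt1). The 5 prefoldin partners of H2-Ke2 lay between 0.21 (Pfdn2) and 1.41 (Vbp1). The 4 partners of Nup188 in the inner ring of the nuclear pore lay between 0.16 (Nup93), the lowest ratio of any partner, and 1.60 (Nup155). Among beta-tubulins Tubb5 stood at 1.14, Tubb2a at 0.42 and Tubb3 at 0.38. Tubb2c, Sumo3, Hnrnpk, Phb2 and Pkm2 have close paralogs or processed copies, and how reads that fit several places were counted is not given in the sources used here, so the split between copies is uncertain. Members sharing exon bases with another gene numbered 9, and for 3 of them that gene exceeded 10 CPM in GV_C. These were Sumo3 with Ube2g2 (ratio 0.21), Swi5 with Golga2 on the opposite strand (0.16) and Tmem150a with Rnf181 on the opposite strand (0.28).

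The members were shorter than other well-expressed genes. Summed exon length had a median of 2104 bases (642 in Fkbp2 to 6241 in Nup188) over the 38, against 3428 bases over the 3755 genes with at least 50 CPM in GV_C. The quartiles were 1534 and 3144 bases for the members and 2078 and 5441 bases for the 3755. The difference came from the long end: 4 of 1543 genes of 4000 bases or more were members (0.259%), against 17 of 1320 from 2000 to just under 4000 bases (1.29%), 14 of 684 from 1000 to just under 2000 bases (2.05%) and 3 of 208 shorter genes (1.44%). The 4 long ones were Nup188, Xdh, Pdlim2 and Nkd1. Members also had fewer exon blocks (median 7.5 against 10) and a shorter genomic span (median 9099 against 25525 bases). Within the 38, length and the share left were only weakly related (Spearman's rho 0.12 over 38 genes that share their libraries), and over the 3755 genes rho was 0.04. These are descriptions across genes, which are not replicates, and CPM is not scaled by length.

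**Figure D2:**
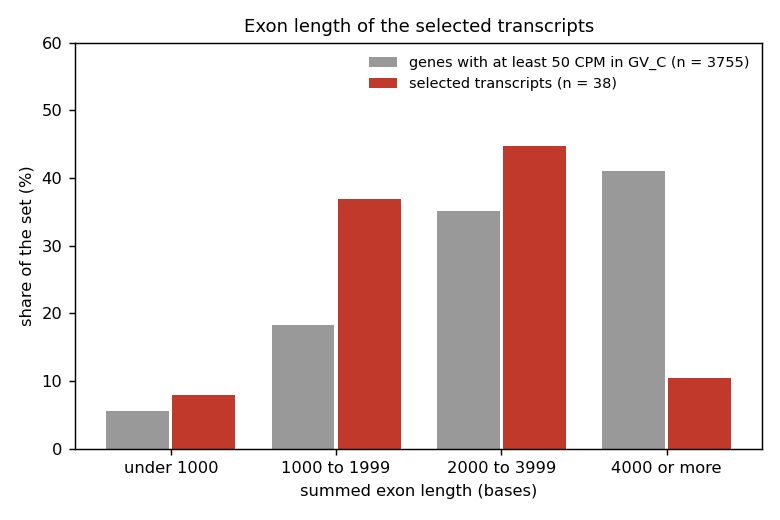
Share (y axis, %) of the 3755 genes with at least 50 CPM in GV_C (grey bars) and of the 38 selected transcripts (red bars) in 4 classes of summed exon length (x axis, bases). Genes of 4000 bases or more are 41.1% of the grey set and 10.5% of the red set.

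In the mm9 coordinates of the table the 38 lie on 15 chromosomes, 6 each on chromosomes 2 and 4. Nudc lies on chromosome 4 (133088457 to 133101911, minus strand, 8 exon blocks), Nat14 on chromosome 7 (4873853 to 4876608, plus strand, 3 blocks) and Tubb2c on chromosome 2 (25077680 to 25080222, minus strand, 3 blocks). Pkm2 lies on chromosome 9 (59504383 to 59527182, plus strand), Ddost on chromosome 4 (137860645 to 137868543, plus strand), Xdh on chromosome 17 (74233248 to 74299522, minus strand) and Pdia6 on chromosome 12 (17273351 to 17291576, plus strand). All values are counts over the exons of these genes.

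RefSeq promoters of build GRCm38.p6, from 250 bases before to 50 bases after the transcript start, matched 33 of the 38 members by symbol (44 promoters). Xdh, Pdlim2, Abhd12, D10Wsu52e and Twf2 had no match. Their median GC content was 62.0%, against 60.3% in 3482 promoters of genes with at least 50 CPM in GV_C and 52.7% in all 32851 promoters. A quadruplex pattern, here 4 or more runs of at least 3 G (GGG) separated by 1 to 7 bases, was searched on both strands. It was found in 34.1% of the members' promoters, 25.9% of the well-expressed and 18.6% of all. The members' share is 15 of 44 promoters, which belong to 12 genes, so some genes count more than once. In the direction of transcription alone the shares were 15.9%, 14.4% and 10.5%, and on the other strand 18.2%, 13.4% and 9.35%. GGGCGG, the GC box, whose G run can overlap that pattern, was in 70.5%, 61.7% and 35.7%. CCAAT was in 47.7%, 40.7% and 37.4%, CGGAAG in 38.6%, 34.1% and 16.9%, TATAAA in 4.55%, 7.70% and 13.6%, and CACGTG in 6.82%, 10.2% and 7.15%, each on either strand. A pattern in promoter DNA says nothing about the transcript's own folding, and transcript sequences were not used here.

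The 100 bases just upstream of the start are shown for 6 members, written in the direction of transcription, 5′ to 3′, so that the composition of this DNA can be seen. Capitals mark the runs of G, or of C where the pattern is on the other strand, that form a match. Nudc and Nat14 fell most in GV oocytes and were lower in both sko comparisons below, as were Pkm2 and Tmem150a. Ddost and 2610002D18Rik kept as little as Nat14 did, within 1 percentage point, and have no match in this window. Of the members not shown, Arl3 and Phb2 also have a match there. Arl3 was called lower in growing sko and did not pass in the second experiment, and Phb2 was called in neither sko comparison. Of the other members lower in both, 2810422O20Rik, Fkbp2, Nkd1 and Npc2 have none, so no link between the pattern and the sko changes is drawn.
Nudc (chr4:133546028-133546127, minus strand): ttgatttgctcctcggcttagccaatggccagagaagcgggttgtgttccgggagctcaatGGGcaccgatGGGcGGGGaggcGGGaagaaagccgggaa
Nat14 (chr7:4922780-4922879, plus strand, 1 of 3 starts): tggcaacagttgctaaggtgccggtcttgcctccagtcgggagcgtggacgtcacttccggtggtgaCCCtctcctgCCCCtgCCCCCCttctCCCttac
Pkm2 (chr9:59656476-59656575, plus strand, 1 of 2 starts): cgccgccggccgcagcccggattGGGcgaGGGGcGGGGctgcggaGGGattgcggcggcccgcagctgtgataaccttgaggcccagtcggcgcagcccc
Tmem150a (chr6:72355383-72355482, plus strand): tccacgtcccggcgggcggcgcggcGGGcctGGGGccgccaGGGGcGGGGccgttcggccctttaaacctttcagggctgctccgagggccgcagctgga
Ddost (chr4:138304638-138304737, plus strand): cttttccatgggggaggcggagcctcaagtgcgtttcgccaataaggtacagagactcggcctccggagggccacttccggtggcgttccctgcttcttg
2610002D18Rik (chr4:134510899-134510998, plus strand): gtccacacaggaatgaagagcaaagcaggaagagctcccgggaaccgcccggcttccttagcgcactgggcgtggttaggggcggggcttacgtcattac

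Outside the cPDS libraries, too, many members lay below their GV_C mean. The GV_C values chose the members, so what follows describes their levels only. Their median level per library was 62.5 to 70.5 CPM in growing control oocytes, 56.7 to 69.1 CPM in growing sko, 57.2 to 89.7 CPM in the 6 deep libraries of the second experiment and 58.7 to 79.7 CPM in the Trim libraries. In growing control oocytes 25 of the 38 were within 2-fold of their GV_C mean, 11 were below that range and 2 above. Growing sko had 16 of the 38 below 0.5 of GV_C. The shares of the 3755 genes below 0.5 were 37.1% in growing controls and 38.6% in growing sko. In the second experiment, over its deep libraries, 15 members in c, 7 in c_DRB, 17 in rhau_sko and 18 in rhau_sko_DRB lay below 0.5 of GV_C. The shares of the 3755 genes in those groups were 9.40%, 6.74%, 16.2% and 19.3%. The members' median relative level in c was 0.61, that of the 3755 genes 0.92. In the Trim experiment 11 members lay below 0.5 of GV_C in the controls and 8 with Trim21, against 9.36% and 6.67% of 3719 matched genes. In growing controls, the 2 members above the range were Nudc, at 1212, 1184 and 1769 CPM, and Mlf2, at 252, 264 and 238 CPM. The lowest relative level was that of Twf2, at 4.48, 3.70 and 4.18 CPM against 58.5 CPM in GV_C. It was followed by Swi5, Fam46b and Dnajc9, at 18.9 to 25.4, 18.2 to 22.1 and 40.7 to 51.9 CPM. For 36 of the 38, all 3 cPDS libraries lay below all 15 other deep libraries of that table. The exceptions were Fam46b and Twf2, and of all 3755 genes 12.1% showed the same separation. The cPDS libraries chose the members, so nothing is read from that count.

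**Figure D3:**
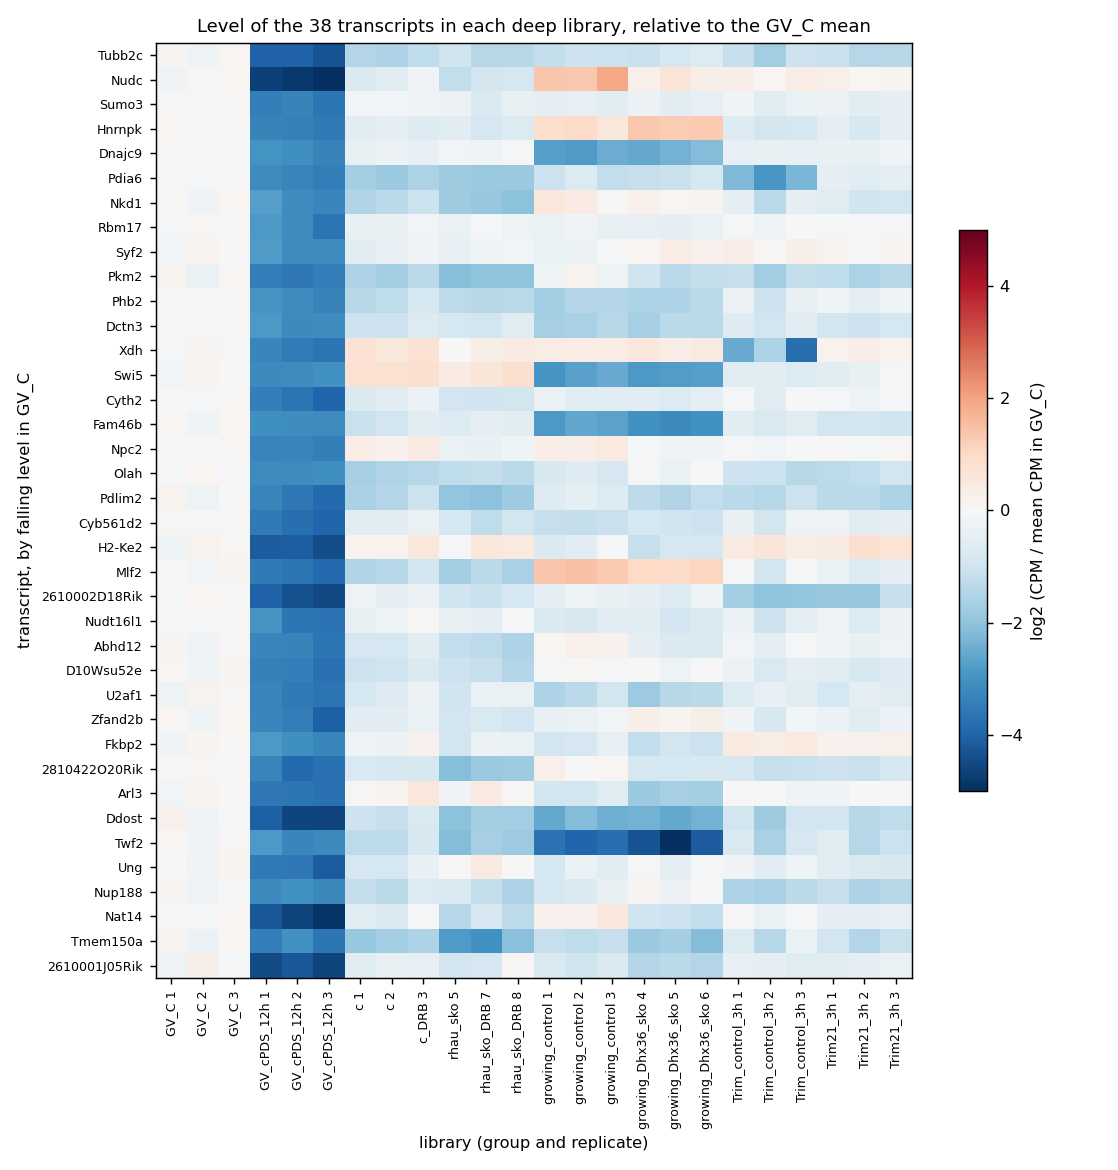
Level of each of the 38 transcripts (rows, by falling GV_C mean) in each of the 24 deep libraries (columns), as log2 of CPM over the GV_C mean (colour). The 3 cPDS columns are blue in every row. Blue cells outside them include Twf2, Dnajc9, Swi5, Fam46b and Ddost in growing oocytes, Tmem150a in the sko libraries of the second experiment, and Xdh and Pdia6 in the Trim controls.

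In growing oocytes with less Dhx36, the members leaned downwards, as did the 3755 well-expressed genes. Of the 38, 18 were lower and 3 higher in sko, and 17 did not pass (edgeR's quasi-likelihood test, Benjamini-Hochberg adjusted p under 0.05 over all genes tested). The share of 47.4% lower is near the background of well-expressed genes: 40.5% of the 3755 were lower and 17% higher, against 25.2% lower and 28.5% higher of all genes tested. The members' median log2 fold change was -0.28, that of the 3755 genes -0.21 and that of all genes 0.02. With library sizes in place of the TMM scaling of the fit, the median of all genes moved to 0.21. The split of the 3755 then moved from 640 higher and 1522 lower to 977 and 1019, that of all genes from 4017 and 3549 to 4825 and 2386, and that of the members to 5 and 13. Levels below are CPM, and fold changes are from the TMM-scaled fit.

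The largest called change was in Nat14, which read 64.0, 65.1 and 78.8 CPM in the controls and 27.9, 27.0 and 23.9 CPM in sko. Its log2 fold change was -1.58 ± 0.13 (SE; adjusted p = 6.68e-08 by edgeR's quasi-likelihood test), and the groups did not overlap. Nudc, at 1212, 1184 and 1769 CPM in the controls, read 544, 716 and 572 CPM in sko, a log2 fold change of -1.36 ± 0.15 (adjusted p = 2.52e-06 by edgeR). The pyruvate kinase gene Pkm2 went from 196, 250 and 188 CPM to 113, 89.1 and 98.0 CPM (-1.27 ± 0.14; adjusted p = 2.23e-06 by edgeR). These are members of 3 unrelated roles. The methyltransferase gene 2810422O20Rik went from 76.9, 64.5 and 68.3 CPM to 35.9, 34.8 and 37.1 CPM (-1.15 ± 0.13). Arl3 followed at -1.10 ± 0.13, Abhd12 at -1.02 ± 0.12 and Pdlim2 at -0.93 ± 0.13. The other 11 lower members lay between -0.89 (Tmem150a) and -0.30 (Rbm17). Of them, Nkd1, Rbm17 and U2af1 had overlapping libraries and lost the call in several leave-outs, as did Twf2 without sko replicate 5 and, with library sizes alone, Twf2 and Fkbp2.

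The 3 higher members changed less. Olah rose from 57.8, 64.8 and 56.8 CPM to 95.4, 80.5 and 101 CPM, a log2 fold change of 0.43 ± 0.13 (adjusted p = 0.00892 by edgeR). Nup188 rose from 30.5, 34.0 and 43.5 CPM to 61.9, 46.7 and 56.4 CPM (0.43 ± 0.14) and Zfand2b from 56.1, 57.7 and 66.8 CPM to 90.3, 79.7 and 89.4 CPM (0.34 ± 0.12). The libraries did not overlap for any of the 3. Each lost its call in at least 1 leave-out: Olah without sko replicate 6 (adjusted p = 0.0570 by edgeR), Nup188 without control replicates 1 or 2 or sko replicate 4, and Zfand2b without control replicate 2 or sko replicates 4 or 6. The count of higher members was 1 without control replicate 2 or without sko replicate 6. The beta-tubulin gene Tubb2c (0.02 ± 0.13) and Dctn3 (-0.07 ± 0.13) were among those that did not pass. The 17 granulosa markers summed to 25.3 to 28.2 CPM in the controls and 87.4 to 93.2 CPM in sko. Of these 17, 5 had all sko libraries above all controls and 0 below, Tnfaip6 was at 0 in all 6, and Fshr made the largest difference, 0.317 against 39.5 CPM. Their part in the members' changes was not tested.

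The second experiment compared 3 deep sko libraries (rhau_sko replicate 5 and both rhau_sko_DRB) with 3 deep controls (both c and c_DRB replicate 3), with DRB as a covariate. Here 17 of the 38 were lower (44.7%), 1 was higher and 20 did not pass. Of the 3755 well-expressed genes 27.2% were lower and 16.6% higher, and of all genes tested 16.8% were lower and 19.2% higher. The members' median log2 fold change was -0.27, against -0.08 for the 3755 and 0.01 for all genes. The count rests in part on 1 library: without c_DRB replicate 3 it was 9 lower and 2 higher. The counts of the 3755 genes fell in that fit too, from 1022 to 609 lower and from 622 to 398 higher.

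The deepest change was again that of a member also lower in growing sko. 2810422O20Rik read 37.3 and 36.3 CPM in c, 36.4 CPM in c_DRB, 14.4 CPM in rhau_sko and 17.5 and 18.6 CPM in rhau_sko_DRB, a log2 fold change of -1.15 ± 0.16 (adjusted p = 0.000246 by edgeR's quasi-likelihood test). Ddost read 30.2, 28.3 and 37.1 CPM in the 3 controls and 15.1, 18.4 and 18.7 CPM in the 3 sko libraries (-0.95 ± 0.14; adjusted p = 0.000494 by edgeR). Tmem150a read 14.1, 15.9 and 17.8 CPM and then 7.35, 6.43 and 12.2 CPM (-0.95 ± 0.25). The groups did not overlap for any of these. The call of Tmem150a was lost without c_DRB replicate 3 or rhau_sko replicate 5 (adjusted p = 0.0821 each). Twf2, the actin monomer-binding gene, read 23.9, 23.8 and 33.5 CPM and then 12.9, 18.3 and 16.4 CPM (-0.89 ± 0.15). Nat14 was at -0.84 ± 0.16 and Nudc at -0.62 ± 0.10. The only higher member was Ung, the uracil glycosylase gene, which read 32.5, 32.1 and 44.4 CPM and then 57.6, 80.4 and 58.1 CPM (0.76 ± 0.15; adjusted p = 0.00229 by edgeR), and which kept its call in all 10 alternatives. Without c_DRB replicate 3, Abhd12, Pdlim2, Nkd1, Pkm2, Cyb561d2, Cyth2 and Zfand2b lost theirs too. Xdh lost its call without rhau_sko replicate 5, and with the 2 shallow libraries included Nudc (adjusted p = 0.0781 by edgeR), Fkbp2, Cyb561d2, Zfand2b and Xdh lost theirs, which left 12 lower. In that fit of 8 libraries 608 of the 3755 well-expressed genes were lower and 262 higher. The granulosa markers summed to 78.0 to 118 CPM in the 3 controls and 122 to 182 CPM in the 3 sko libraries. Of these 17 markers 4 had all sko libraries above all controls and 1 below, Amh was at 0 in all, and Cyp19a1 made the largest difference, 34.8 against 60.9 CPM. The 12 oocyte markers summed to 17558 to 20137 CPM in those controls and 13962 to 14248 CPM in sko. Of these 12 markers 0 had all sko libraries above all controls and 9 below, and Zp3 made the largest difference, 2694 against 1266 CPM. The 37 genes of the mitochondrial genome summed to 1259 to 1703 CPM in those controls and 3020 to 6329 CPM in sko. The 9 immune, endothelial and blood markers summed to 41.2 to 49.2 CPM and 23.5 to 32.9 CPM. Pecam1 made the largest difference there, 43.1 against 22.8 CPM. Of these 9 markers 1 had all sko libraries above all controls and 3 below. The part of any of these lists in the members' changes was not tested.

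The 2 sko comparisons share no library. Of the members, 18 were lower in growing oocytes, 17 in the second experiment and 11 in both. These 11 were 2810422O20Rik, Abhd12, Fkbp2, Nat14, Nkd1, Npc2, Nudc, Pdlim2, Pkm2, Tmem150a and Twf2. That is 11 of 38. Of the 3755 well-expressed genes, 1522 were lower in growing oocytes, 1022 in the second experiment and 786 (20.9%) in both. The count also rests in part on c_DRB replicate 3. Without it, Abhd12, Nkd1, Pdlim2, Pkm2 and Tmem150a drop out, which leaves 6 of 38 members and 13.3% of the 3755 genes. With all 8 libraries of the second experiment 9 members and 13.4% of the 3755 were lower in both. The 11 fall in several roles: 3 are cytoskeletal (Nudc, Pdlim2, Twf2) and 3 metabolic (Abhd12, Npc2, Pkm2). The others were placed in the processing, folding or signalling roles. Zfand2b was called in opposite directions, higher in growing sko and lower in the second experiment. The test of the difference between the sko changes, over 12 libraries, called 5 members with a higher and 2 with a lower change in the second experiment, against 10.8% and 6.66% of the 3755 genes and 4.91% and 7.63% of all genes tested. Without rhau_sko replicate 5 that test called 3 members, 0 of them with a higher change, and with library sizes alone it called 1 higher and 5 lower. The counts of the 3755 genes moved as well, from 405 higher and 250 lower. They were 156 and 169 without rhau_sko replicate 5, and 161 and 454 with library sizes alone.

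**Figure D4:**
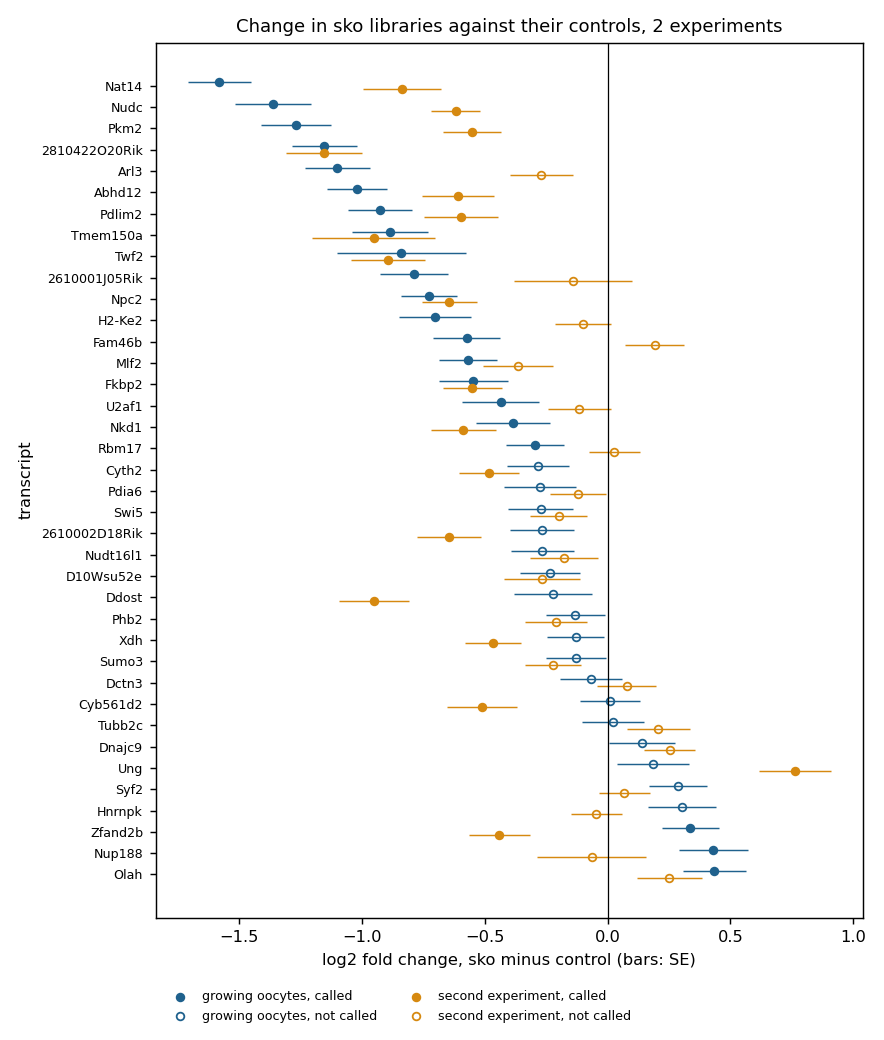
Log2 fold change of sko minus control (x axis; bars are the SE) of each of the 38 transcripts (y axis) in growing oocytes (blue) and in the deep libraries of the second experiment (orange). Filled points passed an adjusted p of 0.05, 21 in growing oocytes and 18 in the second experiment, and most of them lie left of 0.

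DRB moved no member past the threshold in the same 6 libraries: 0 were higher and 0 lower by edgeR's quasi-likelihood test. An unadjusted p under 0.05 was found for 11 members. The share of all genes with such a p is not given here, so nothing is read from the 11. DESeq2 called 4 members higher, and edgeR without the filter on low counts called 3. In the edgeR fit with the filter 0.00596% of all genes tested were higher and 0.00596% lower, and of the 3755 genes 0% in either direction. The backgrounds of the other 2 fits were larger: DESeq2 called 149 of 3753 well-expressed genes higher and 120 lower, and edgeR without the filter 105 and 82 of 3755. The log2 fold change was above 0 in 32 of the 38 members, with a median of 0.18, against a median of -0.03 for the 3755 genes and 0.00095 for all genes tested. The share of those genes above 0 is not given here, so nothing is read from the 32. U2af1 read 41.8 and 48.4 CPM in c, 38.5 CPM in rhau_sko, 62.9 CPM in c_DRB and 61.1 and 60.2 CPM in rhau_sko_DRB (0.54 ± 0.13; adjusted p = 0.169 by edgeR, 0.0103 by DESeq2). Fkbp2 was at 0.53 ± 0.12 and H2-Ke2 at 0.45 ± 0.11.

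In the Trim experiment, 2 members were higher with Trim21 and 0 lower. By edgeR's quasi-likelihood test 6 had an unadjusted p under 0.05, and DESeq2 called 0 lower as well. The share of all genes with such a p is not given here, so nothing is read from the 6. With all 6 libraries the backgrounds were 7.53% higher (280) and 4.49% lower (167) of 3719 matched well-expressed genes, and 6.26% and 5.23% of all genes tested. Without control replicate 2, 4 members were called, 2 of them lower. In that fit 398 of the 3719 were higher and 281 lower. Xdh read 29.4, 56.2 and 12.3 CPM in the controls and 190, 212 and 189 CPM with Trim21, a log2 fold change of 2.57 ± 0.38 (adjusted p = 0.000978 by edgeR). Pdia6 read 61.2, 37.5 and 58.4 CPM and then 203, 187 and 210 CPM (1.94 ± 0.16; adjusted p = 1.06e-05 by edgeR). It is the control libraries that stand apart for Xdh: its level was 160 to 280 CPM in every other deep library outside the cPDS group. For Pdia6 the same libraries read 78.0 to 289 CPM, so its Trim controls were the lowest as well. Levels across the tables are set side by side without a test, since they were scaled library by library. Nudc did not pass, at 583, 488 and 591 CPM in the controls and 549, 492 and 509 CPM with Trim21. The granulosa markers summed to 49.9 to 53.3 CPM in the controls and 69.8 to 79.5 CPM with Trim21, with 3 of the 17 above in all libraries, 1 below, and Amh and Foxl2 at 0. Their part was not tested.

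**Figure D5:**
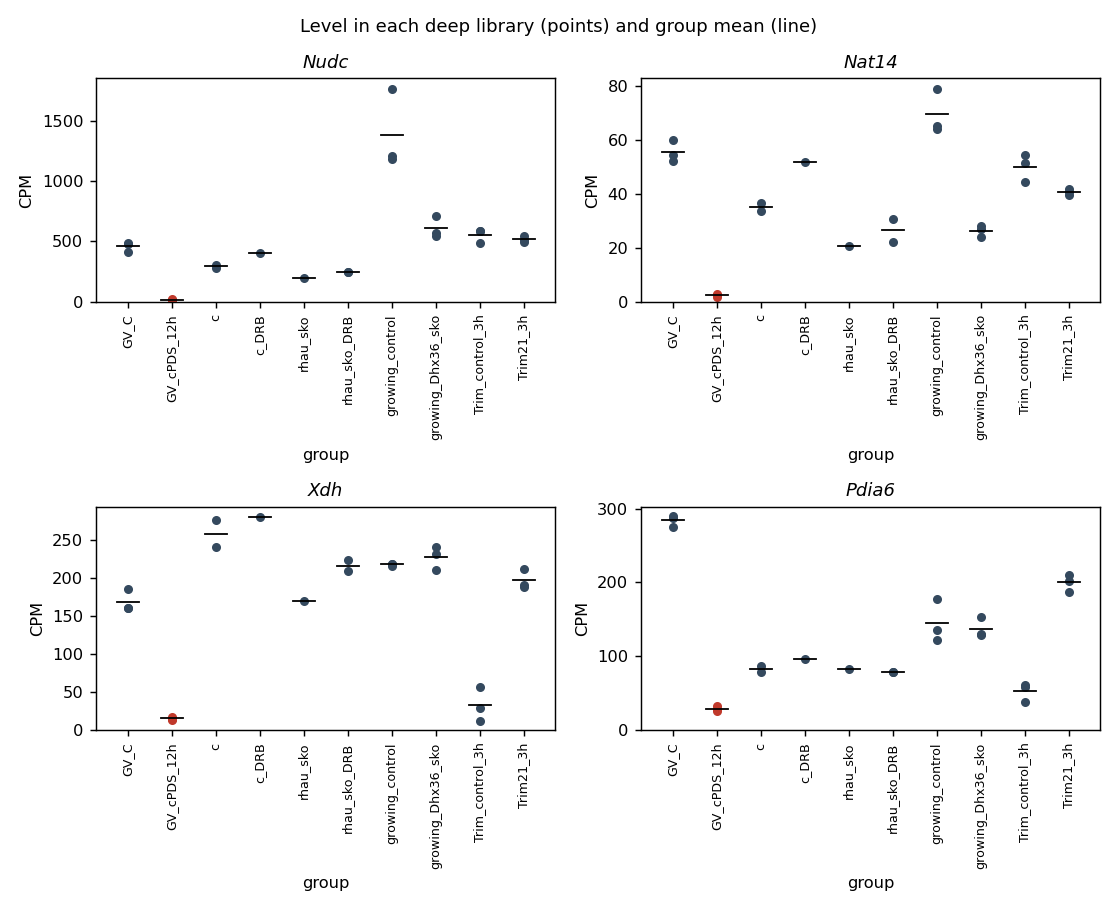
Level (y axis, CPM) of Nudc, Nat14, Xdh and Pdia6 in each deep library (points) of the 10 groups (x axis), with the group mean as a line and the cPDS libraries in red. Nudc and Nat14 are lower in both sko sets than in their controls, whereas Xdh and Pdia6 are low in the cPDS libraries and in the Trim controls.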

How the data were processed

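The authors deposited unnormalised counts of reads over each gene's exons, and per the file headers the layout is that of featureCounts. Build mm9 is listed in the submitters' processing notes, with HISAT2 2.1.0, STAR 2.5.2b and featureCounts 2.0.1 without saying which made the tables. Strand setting and the counting of multiply fitting reads are not stated, so overlapping genes cannot be told apart. One table held 20 libraries. The other held the 6 Trim libraries, and its features were matched by identical exons (33581 of 37310). All 38 members were found there. Counts were fitted with edgeR 4.0.16 (quasi-likelihood test, TMM factors, filterByExpr with a minimum count of 10, R 4.3.3) and adjusted over all genes tested by Benjamini-Hochberg, with a threshold of 0.05. All 38 members passed the filter in each of the 5 comparisons. DESeq2 1.42.0, library sizes alone, no filter, all 8 libraries of the second experiment and leaving out each library were alternatives. Each SE was taken by dividing the size of the log2 fold change by the root of the F statistic. Each fit's script was tested on simulated data.

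The members and lists were chosen with earlier results of these data known. Chosen for naming by rule were 29 members: the 8 with the highest GV_C means, the 8 lowest ratios, the 4 largest called changes each way per comparison without overlap, 3 on each side of the threshold, and 2 per functional list. Not all of these are given library by library. Dnajc9, Rbm17, 2610001J05Rik, Cyb561d2 and Phb2, among others, appear in the GV results by their share left. Members outside that rule are given there by their share left or fold.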

Additional observations from a re-analysis of the deposited data

Results flagged for a closer look

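In all, 7 members differed between the growing oocytes and the second experiment in the test of the sko change itself, 5 with a higher and 2 with a lower change in the second experiment (edgeR's quasi-likelihood test of the interaction, 12 libraries, adjusted over all genes). The values are log2 changes in the second experiment minus those in growing oocytes. Zfand2b stood at -0.81 ± 0.17 (SE; adjusted p = 0.00331 by edgeR) and passed in all 13 alternatives. Ddost stood at -0.76 ± 0.21 and passed in 5 of 13. Arl3 stood at 0.80 ± 0.18, Nudc at 0.71 ± 0.19, Nat14 at 0.71 ± 0.20 and Pkm2 at 0.68 ± 0.19. Each of these 4 had a smaller fall in the second experiment than in growing oocytes, and none of them passed without rhau_sko replicate 5. With library sizes alone, Nudc, Nat14 and Pkm2 did not pass, and the median over all genes was -0.25 in place of -0.08. The other member, Fam46b, stood at 0.74 ± 0.18 and likewise did not pass under either of those settings.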

How the results depend on the processing

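The rule found 38 genes as stated and 36 with TMM scaling, 145 at a threshold of 0.25, 7 at one sixteenth, 63 at a minimum of 20 CPM, 18 at 100 CPM, and 35 to 42 without 1 GV library. Leaving out 1 library gave 17 to 24 members called in growing sko (1 to 4 higher, 15 to 20 lower), 11 to 19 in the second experiment (1 to 2 higher, 9 to 18 lower), 0 for DRB, 2 to 4 for Trim21 (2 higher, 0 to 2 lower) and 3 to 8 for the difference between the sko changes (0 to 7 higher, 1 to 3 lower). The low ends were reached without c_DRB replicate 3 in the second experiment (11 called, 9 lower, 2 higher) and without rhau_sko replicate 5 in the difference (3 called, 0 higher), and the Trim21 count of 4, with 2 lower, came without control replicate 2. Of the 3755 well-expressed genes the same leave-outs called 517 to 709 higher and 1325 to 1590 lower in growing sko. The second experiment had 398 to 644 higher and 609 to 1056 lower, and DRB 0 and 0. The difference had 156 to 719 higher and 129 to 247 lower. Of 3719 matched genes the Trim21 leave-outs called 160 to 398 higher and 74 to 281 lower. Library sizes alone gave 5 members higher in growing sko, and 1 higher and 5 lower for the difference. DESeq2 called 4 members for DRB, all higher, and no filter 3, all higher. The counts of well-expressed genes in these fits are given with each comparison above. The cause of these shifts was not tested. The ratio of the median lengths was 0.614, and 0.817 against all features with a count or 0.600 without the excluded names. For single members, 1422 alternative values stayed on their side of the threshold, 29 passed newly and 57 no longer passed. The sign changed in 110 alternative values, none of which passed in either fit, and in 0 that passed in one or both.

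The replicate numbers of the Trim libraries did not pair them: same-numbered libraries correlated at 0.07, 0.09 and -0.05. With the number as a replicate block, 2 members were called, 2 higher and 0 lower, as without it.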
